A study of Ovis aries with 36 samples.

Results

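The muscle described here is the infraspinatus of the side that was not operated, taken at the last occasion of the experiment (END-CC). Its members were chosen by their sample titles. Of the 36 libraries of the series, 9 carry that title, with 3 each from the arms CONTROL, N22W and N6W, and the 6 libraries of the treated arms were set against the 3 of CONTROL. The question asked of them is whether weekly nandrolone left a mark on the transcripts of a muscle without surgery of its own.

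All animals were female Swiss Alpine sheep of 2 years, and each had the infraspinatus tendon of the other shoulder released for 16 weeks and then reattached for 6 weeks. CONTROL animals had this surgery without nandrolone, and the labels do not say whether they received a vehicle. N22W animals received 150 mg of nandrolone decanoate every week from release onwards, for 22 weeks, and N6W animals the same weekly dose from repair onwards, for 6 weeks. The labels give arm body weights of 45.3 ± 1.9 kg (CONTROL), 47.1 ± 0.8 kg (N22W) and 48.4 ± 1.5 kg (N6W), without naming the kind of error. Each arm had 6 animals in the design text, and libraries of 3 are described here. No library came from an animal that had not been operated at all.

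Nandrolone is a synthetic relative of testosterone, and its decanoate ester is released slowly from an oil depot in muscle. It binds the androgen receptor, a transcription factor that muscle fibres and their satellite cells carry and that moves to the nucleus when bound. In skeletal muscle such steroids are known for raising protein synthesis and fibre size. The infraspinatus is a muscle of the rotator cuff and turns the upper arm outward.

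Values are called normalized reads: the steps between the deposited values show whole reads per gene, each library scaled by a factor of its own. The 9 libraries held 13479392 to 24384515 reads, and 15495 to 16374 of 25197 genes had at least 1 read. Genes are given by Ensembl identifier only, since none could be paired with a name, so neither the tissue label nor markers of fat, blood, tendon or nerve could be checked. A biopsy holds several cell types, and fewer cells of a type cannot be told apart from less RNA per cell. The biopsies taken before release (PRE) and at repair (TR) in CONTROL and N22W form a set of 12 libraries scaled apart from the other 24, and 499 genes lay over 8-fold (with 1 added to each value) higher in each of those 12 than in any of the 24. All 9 END-CC libraries lie among the 24, as do the END libraries of every arm and the PRE libraries of N6W.

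As whole profiles, treated and CONTROL muscle lay at distances that overlapped those between animals of the same arm. Over the 12345 genes with a mean of at least 10 normalized reads, the median absolute log2 difference between 2 libraries ran from 0.2162 to 0.3216 for the 18 pairs of a treated with a CONTROL animal. It ran from 0.2065 to 0.2482 for the 3 pairs within CONTROL and from 0.2035 to 0.3372 for the 15 pairs within the treated animals. Distances between the groups exceeded those within them by 0.000557 on average (one-sided exact permutation test over the 84 splits of 6 against 3 animals, p = 0.464, adjusted over 5 tests p = 0.932). Animal 2913 of N22W was the library farthest from the others, with a mean distance of 0.3005 against 0.2327 to 0.2738 for the other 8, and it also held the fewest reads.

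**Figure D1:**
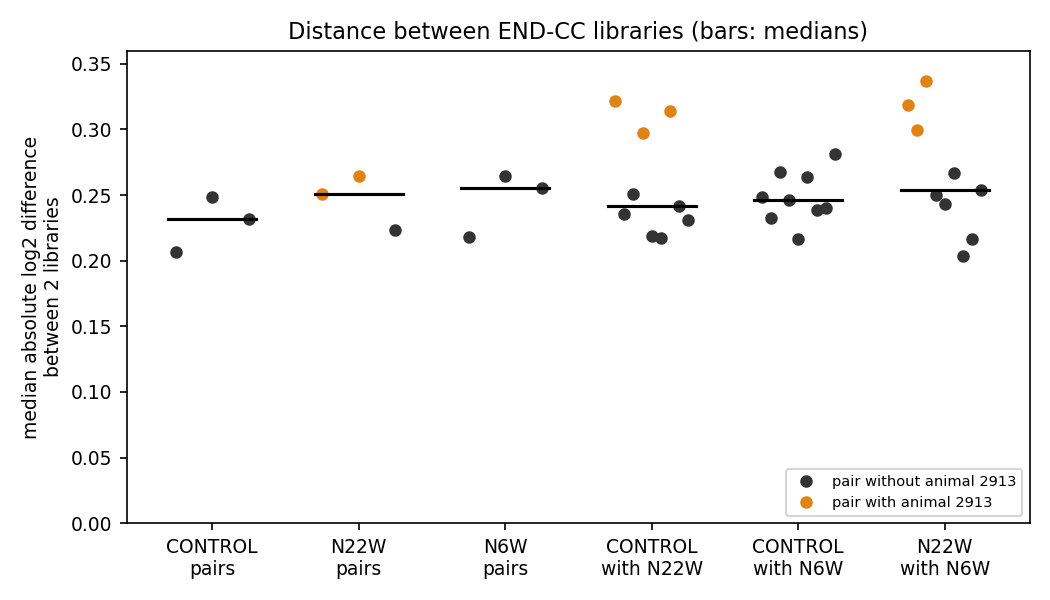
Median absolute log2 difference between each pair of END-CC libraries over 12345 genes (vertical axis), grouped by the arms of the pair, with bars at the medians. Pairs across arms lie at the height of pairs within arms, and the pairs of animal 2913 with CONTROL or N6W animals are the 6 highest.

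Neither the number of genes detected nor the dominant transcript set the groups apart. Treated libraries had 16164, 16374 and 16367 genes in N22W and 15562, 15987 and 15495 in N6W, and CONTROL libraries 16059, 15961 and 15844. The CONTROL values overlapped those of N6W and lay below those of N22W, and the difference of the means was 36.8 genes (two-sided exact permutation test, 6 against 3 animals, p = 0.857). With each library thinned to 13479392 reads it was 155 genes (exact permutation p = 0.512). N22W (16164, 15631 and 15728) then overlapped CONTROL (15470, 15707 and 15309). The most abundant gene, the same in all 9 libraries, took 30.9% ± 2.42 of the summed values in the treated animals and 30.8% ± 0.842 in CONTROL (SD, n = 6 and 3; exact permutation p = 0.941). Each of these p-values was at least 0.932 after adjustment over the 5 tests, and 0.0119 is the smallest the design allows.

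Gene by gene, 0 of 16417 genes passed the test of the treated arms against CONTROL (limma with Benjamini-Hochberg adjustment, false discovery rate of 0.05, background 0%), and the smallest adjusted p was 0.26. At an unadjusted p under 0.05 there were 1278 genes (7.78%), 596 with higher and 682 with lower values in the treated animals. edgeR on the recovered reads called 0 genes as well, whereas DESeq2 called 45, of which 13 were higher and 32 lower. A limma fit of the whole series of 36 libraries, blocked by animal, called 7, of which 4 were higher and 3 lower. The absence of calls in limma and edgeR therefore describes those tests at 3 and 6 animals and does not show that the muscles were alike.

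What sizes of difference the comparison could resolve depended on the level of a gene. The median absolute log2 difference over all genes was 0.17. For the 5998 genes between 100 and 1000 normalized reads the 95% confidence interval of the difference reached a median of 0.31 to either side, and for the 4072 genes under 10 it reached 1.14. Differences of at least 2-fold were accordingly found among low genes: 316 genes were at least 2-fold higher (1.92%) and 233 at least 2-fold lower (1.42%), of which 222 and 154 had a mean under 10. Among the 1556 genes with a mean of 1000 or more, 6 were at least 2-fold higher and 1 was at least 2-fold lower.

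In 279 genes (1.70%) every treated library lay above every CONTROL library, and in 293 genes (1.78%) every treated library lay below. Without any difference between groups, 1 of the 84 splits of 6 against 3 animals separates a gene in a given direction, a share of 0.0119. The higher genes had a median log2 difference of 0.575 and the lower genes one of −0.458, and 67 and 59 of them reached 2-fold. Both directions held similar numbers, but the balance differed with the level. From 10 to 100 normalized reads 114 of 4791 genes were higher and 61 lower (together 3.65%). Whether the balance shifts with level was not tested. At 1000 and more, 15 of 1556 genes were higher and 56 lower (together 4.56%). The latter counts were 13 and 57 after TMM scaling and 27 and 57 without animal 2913. Over all levels, leaving out 2913 gave 369 higher and 399 lower genes, together 4.68% against 3.48% with all 9 libraries. Leaving out a library can only keep or raise such counts, so these increases carry no weight.

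**Figure D2:**
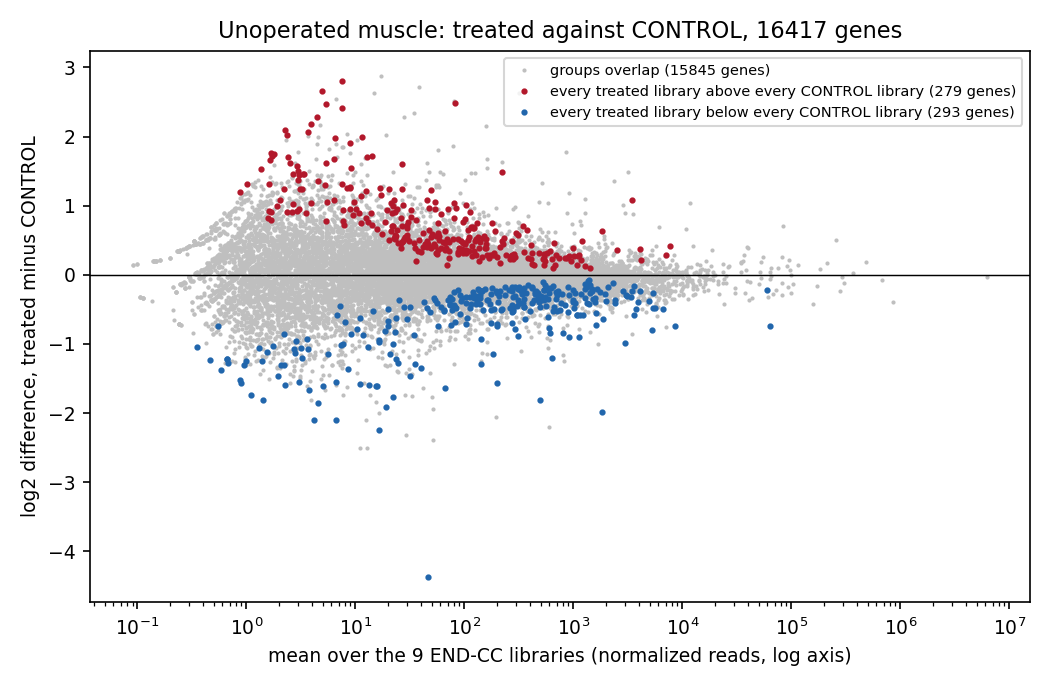
Log2 difference of treated minus CONTROL END-CC libraries (vertical axis) against the mean over the 9 libraries in normalized reads (horizontal log axis), 1 point per gene. Red points are the 279 genes and blue points the 293 genes whose groups do not overlap, and the spread of all genes narrows as the mean grows.

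Of the genes with a mean of at least 10 and higher values under nandrolone, ENSOARG00000003586 had the smallest p. It stood at 70.4, 74.88 and 64.64 normalized reads in the CONTROL animals. The N22W animals had 190, 136.2 and 127.9, and the N6W animals 97.36, 127.5 and 125.5. All treated animals lay above all CONTROL animals, with 134 ± 30.4 against 70.0 ± 5.13 (SD, n = 6 and 3), a log2 difference of 0.90 (SE 0.17, 95% confidence interval 0.53 to 1.27, limma adjusted p = 0.27).

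ENSOARG00000011445, a gene of low level, came next. The CONTROL animals had 3.805, 4.91 and 4.04 normalized reads, the N22W animals 26.95, 13.95 and 17.76, and the N6W animals 9.336, 18.57 and 14.59. Each CONTROL value stands for 4 reads, so it is known only coarsely. Again no treated animal reached down to CONTROL. Its log2 difference was 1.71 (SE 0.33, 95% confidence interval 0.99 to 2.43, limma adjusted p = 0.285).

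The smallest p of the joint contrast among the named genes belonged to ENSOARG00000015296, whose values were lower under nandrolone. It stood at 1567, 1441 and 1399 normalized reads in CONTROL, at 1018, 920.6 and 990.1 in N22W and at 988.2, 1051 and 919.3 in N6W. Both treated arms sat at the same height, 976 ± 50.2 and 986 ± 65.9 (SD, n = 3 each), well apart from the 1469 ± 87.4 of CONTROL. The log2 difference was −0.58 (SE 0.09, 95% confidence interval −0.77 to −0.39, unadjusted p = 3.54e-05, limma adjusted p = 0.26).

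ENSOARG00000006132 was lower as well, from 882.8, 799.1 and 781.7 normalized reads in CONTROL to 428.7, 608 and 595.8 in N22W and 449.4, 418.4 and 412.9 in N6W. Its groups did not overlap, and the N6W animals lay closest together. The log2 difference was −0.77 (SE 0.12, 95% confidence interval −1.04 to −0.51, limma adjusted p = 0.26). DESeq2 called ENSOARG00000003586 (adjusted p = 0.0109), ENSOARG00000015296 (adjusted p = 3.99e-05) and ENSOARG00000006132 (adjusted p = 0.000107), which limma and edgeR did not.

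**Figure D3:**
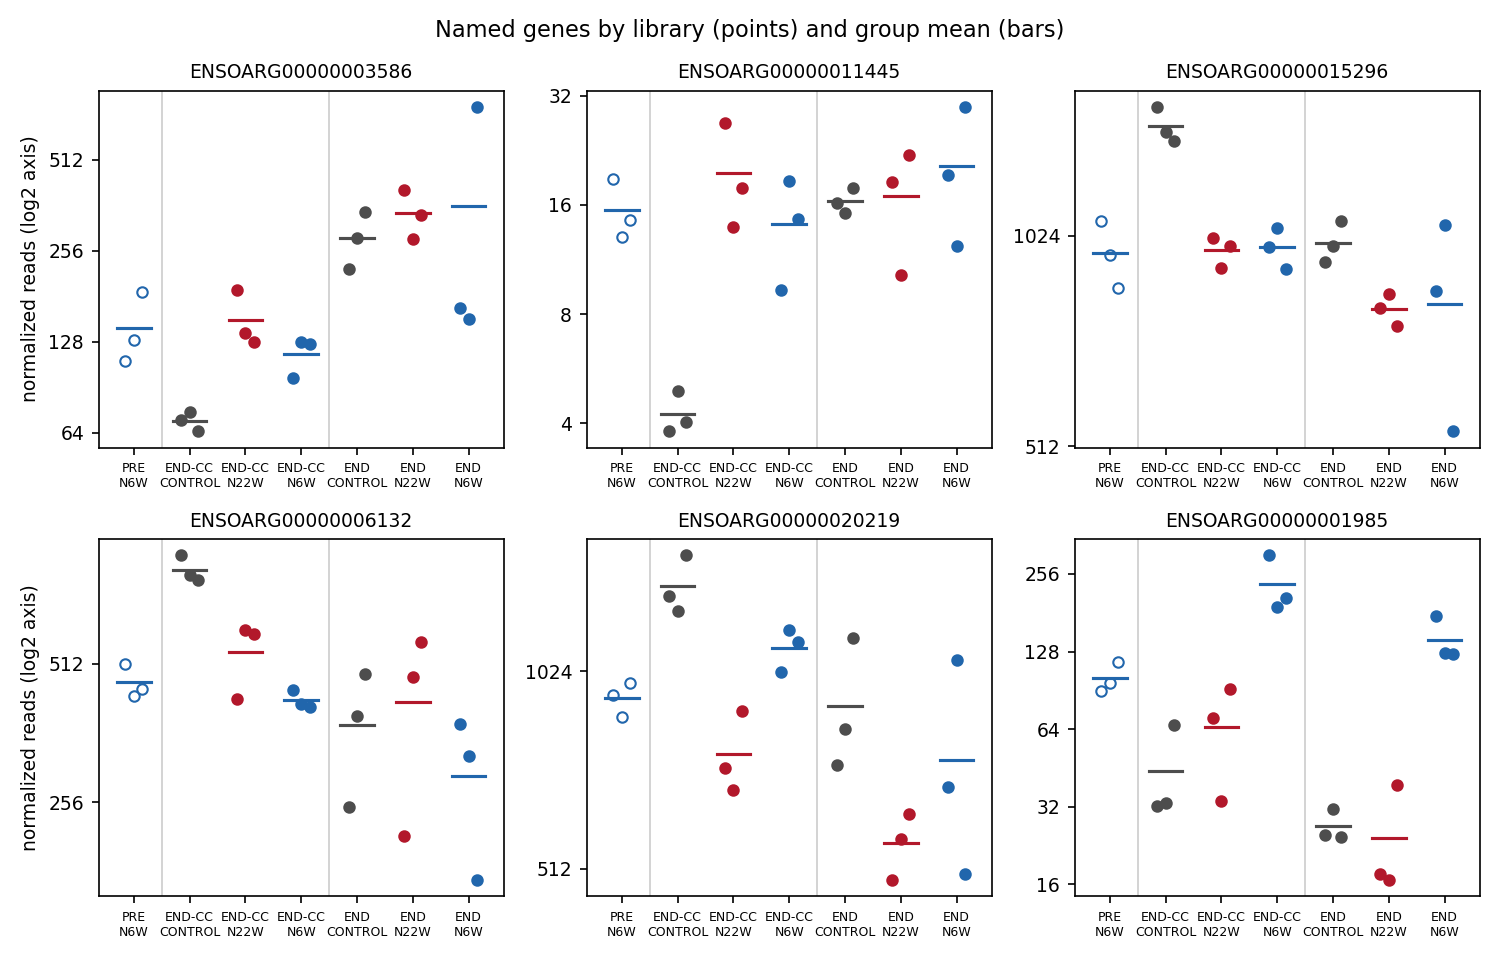
Normalized reads (vertical log2 axis) of the 6 genes chosen by the rule, 1 point per library, with bars at the mean of 3 libraries. From left to right stand N6W before the drug (open points), the 3 arms in the unoperated muscle (END-CC) and the 3 arms in the operated muscle (END).

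N22W alone, after 22 weeks of drug, gave 0 called genes against CONTROL (background 0%, smallest limma adjusted p = 0.25), with 1499 at an unadjusted p under 0.05 (9.13%), of which 650 were higher and 849 lower. edgeR also called 0 genes, and DESeq2 called 106, of which 104 were lower. Differences of at least 2-fold were higher in 522 genes (3.18%) and lower in 294 (1.79%). All 3 N22W libraries lay above all 3 CONTROL libraries in 1121 genes (6.83%) and below them in 1185 (7.22%). Without any difference between groups, 3 against 3 animals separate a gene in a given direction with a share of 0.05. These shares are thus near that level and cannot be set beside those of the joint comparison. Among genes with lower values the smallest p was that of ENSOARG00000020219, with 730.3, 675.3 and 888.8 normalized reads in N22W against 1333, 1266 and 1537 in CONTROL. Its log2 difference was −0.85 (SE 0.13, 95% confidence interval −1.14 to −0.57, limma adjusted p = 0.25, DESeq2 adjusted p = 2.44e-05). In N6W the same gene stood at 1022, 1181 and 1132, between the other arms without touching either, and its log2 difference to CONTROL was −0.31 (95% confidence interval −0.59 to −0.03, limma adjusted p = 0.696). Among genes with higher values the smallest p was that of ENSOARG00000003586, with a log2 difference of 1.08 (SE 0.19, limma adjusted p = 0.25).

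N6W alone, after 6 weeks of drug, likewise gave 0 called genes (background 0%, smallest limma adjusted p = 0.295), with 1140 at an unadjusted p under 0.05 (6.94%), 549 higher and 591 lower. edgeR called 0 and DESeq2 called 17, of which 8 were higher and 9 lower. Differences of at least 2-fold were higher in 387 genes (2.36%) and lower in 436 (2.66%). The groups did not overlap in 982 higher (5.98%) and 1029 lower genes (6.27%), again near the share of 0.05 without any difference. Among higher genes the smallest p was that of ENSOARG00000001985, with 302.7, 190.7 and 207.2 normalized reads in N6W against 32.34, 33.14 and 66.66 in CONTROL. Its log2 difference was 2.43 (SE 0.38, 95% confidence interval 1.59 to 3.27, limma adjusted p = 0.295, DESeq2 adjusted p = 8.13e-06). N22W animals had 70.59, 33.64 and 91.46 of it, within reach of CONTROL, with a log2 difference of 0.52 (95% confidence interval −0.32 to 1.36). Among lower genes the smallest p was that of ENSOARG00000006132, with a log2 difference of −0.94 (SE 0.14, limma adjusted p = 0.295).

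Both treated arms share the CONTROL libraries, so likeness of their differences carries no weight of its own. Set directly against each other, N22W and N6W gave 0 called genes in limma (background 0%, 1456 at an unadjusted p under 0.05, or 8.87%, smallest adjusted p = 0.229) and 0 in edgeR. ENSOARG00000001985 was lower in N22W than in N6W by a log2 difference of −1.91 (95% confidence interval −2.75 to −1.07, limma adjusted p = 0.462). For ENSOARG00000015296 that difference was −0.01, with a 95% confidence interval of −0.23 to 0.21. The interval of the former leaves out 0 and that of the latter holds it, and neither gene passed the adjusted test. The former was named for its high N6W values in these same libraries, which by itself draws its difference away from 0.

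Libraries from before the drug allow the N6W values to be placed, since the PRE libraries of that arm lie in the same set as all END-CC libraries. PRE biopsies came from the muscle that was later released and END-CC biopsies from the other side 22 weeks later, so time, side and drug cannot be told apart in this change. For the 4 genes named jointly the N6W animals stood near their later level before any injection. ENSOARG00000015296 had 1077, 962.7 and 862.5 normalized reads at PRE, around its treated END-CC libraries (919.3 to 1051) and below all CONTROL END-CC libraries. ENSOARG00000006132 had 512.5, 437 and 450.7, ENSOARG00000003586 had 110.6, 129.1 and 187.4, and ENSOARG00000011445 had 18.88, 13.04 and 14.54. Their log2 changes from PRE to END-CC within the N6W animals were 0.03, −0.13, −0.26 and −0.15 in that order, with 95% confidence intervals that all included 0.

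The 2 genes named for a single arm stood lower at PRE than at END-CC in N6W. ENSOARG00000001985 went from 89.91, 96.53 and 116.3 normalized reads at PRE to 302.7, 190.7 and 207.2 at END-CC, higher in 3 of 3 animals, a log2 change of 1.18 (95% confidence interval 0.62 to 1.74, limma adjusted p = 0.114). The same N6W END-CC libraries had entered the choice of ENSOARG00000001985, which by itself favours a rise from PRE. At PRE this gene already lay above the CONTROL END-CC libraries. ENSOARG00000020219 went from 943.1, 872.7 and 982.1 to 1022, 1181 and 1132, also higher in 3 of 3 animals, which is toward CONTROL and not away from it (log2 change 0.25, 95% confidence interval 0.0036 to 0.50, limma adjusted p = 0.244). Over all genes, limma called 0 changes from PRE to END-CC in N6W (background 0%, smallest adjusted p = 0.0903). At an unadjusted limma p under 0.05 there were 3291 of 16417 genes, the most of the main comparisons described here.

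The genes whose treated and CONTROL libraries did not overlap were placed in the same way. In the 279 higher genes the N6W END-CC libraries lay above CONTROL by a median log2 difference of 0.552, and the N6W PRE libraries, before the drug, by 0.508. In the 293 lower genes the medians were −0.424 and −0.458. All 3 N6W PRE libraries lay above all CONTROL END-CC libraries in 154 of the 279 genes (55.2%, against 11.3% of all genes), and below them in 198 of the 293 (67.6%, against 13.1% of all genes). These differences share the CONTROL libraries that chose the genes, which by itself draws them the same way. The change from PRE to END-CC within N6W uses no CONTROL library. The N6W END-CC libraries did enter the choice of the genes, which by itself draws this change toward the direction of the choice. The median change was 0.051 in the higher and 0.027 in the lower genes, against −0.017 over all genes.

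Genes can also be chosen without any N6W library. Of the 1121 genes in which N22W lay above CONTROL, 388 (34.6%) had higher END-CC than PRE values in N6W, against 47.8% of all genes, and their median log2 change was −0.151. Of the 1185 genes in which N22W lay below CONTROL, 332 (28.0%) had lower END-CC than PRE values in N6W, against 51.9% of all genes, with a median log2 change of 0.18. On the median, these genes thus differed between PRE and END-CC in N6W in the direction opposite to that between N22W and CONTROL.

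For N22W the comparison with its own PRE libraries crosses the sets, as it does for CONTROL, and only the difference between both changes was tested. This comparison was added after the data had been seen. Before any drug, limma called 0 genes between the PRE libraries of N22W and CONTROL (background 0%, 860 of 16417 at an unadjusted p under 0.05, 0 called by edgeR). The 279 higher genes had a median log2 difference of 0.06 at PRE and of 0.589 at END-CC, and the 293 lower genes 0.048 and −0.475. The separation of N22W from CONTROL in these genes was thus not there at PRE on the median, although END-CC values of both arms had entered their choice and PRE values had not. Across the sets, CONTROL PRE libraries of ENSOARG00000003586 (85.16 to 173) and ENSOARG00000011445 (12.27 to 22.1) lay above CONTROL END-CC (64.64 to 74.88 and 3.805 to 4.91). Those of ENSOARG00000015296 and ENSOARG00000006132 overlapped CONTROL END-CC.

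The change from PRE to END-CC differed between N22W and CONTROL in 3 genes, all with a lower change under nandrolone (limma with the animal as a block, background 0.0183%, 1540 of 16417 at an unadjusted p under 0.05). They lie outside the rule for named genes and are named because they passed. ENSOARG00000017409 had 509.9, 394.7 and 358.4 normalized reads at PRE and 1039, 901 and 1049 at END-CC in CONTROL, but 733, 683.8 and 1053 followed by 332.4, 283.9 and 531 in N22W. The values went up in 3 of 3 CONTROL animals and down in 3 of 3 N22W animals, a difference of changes of −2.38 (log2, SE 0.17, adjusted p = 0.000567).

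ENSOARG00000001626 had 469.5, 226 and 279.8 at PRE and 1276, 820 and 705 at END-CC in CONTROL, against 430.7, 556.9 and 900.7 followed by 232.3, 153.4 and 445.8 in N22W. Its difference of changes was −2.79 (SE 0.25, limma adjusted p = 0.00271). ENSOARG00000007244 had 898.5, 719.1 and 632 followed by 1134, 1490 and 1289 in CONTROL, and 937.3, 1015 and 2036 followed by 477.4, 549.8 and 691.7 in N22W. Its difference was −1.94 (SE 0.23, limma adjusted p = 0.0265). For all 3 genes the arm means had swapped order between PRE and END-CC, which a choice by the difference of changes favours. At PRE the arms overlapped for ENSOARG00000001626.

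Part of each difference lay in the PRE libraries, where N22W stood above CONTROL by log2 differences of 0.96, 0.95 and 0.75 in the order given. At END-CC alone N22W stood below CONTROL by log2 differences of −1.43, −1.84 and −1.19, none of which passed (limma adjusted p = 0.25, 0.291 and 0.25). In N6W the log2 changes from PRE to END-CC were 0.50, 0.01 and 0.72 (limma adjusted p = 0.123, 0.984 and 0.0903), and the values of ENSOARG00000017409 and ENSOARG00000007244 were higher at END-CC in 3 of 3 animals. Without the animal term 0 genes passed, with adjusted p = 0.0632, 0.382 and 0.346 for the 3 genes. ENSOARG00000007244 lost its call when animal 2902 was left out (−1.82, limma adjusted p = 0.197), and likewise for 2903 (−1.83, 0.0805), 2914 (−2.07, 0.0643) and 2915 (−1.73, 0.0545). The count was 7 without 2901, 11 without 2913 and 6 without 2915, and edgeR called 9.

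**Figure D4:**
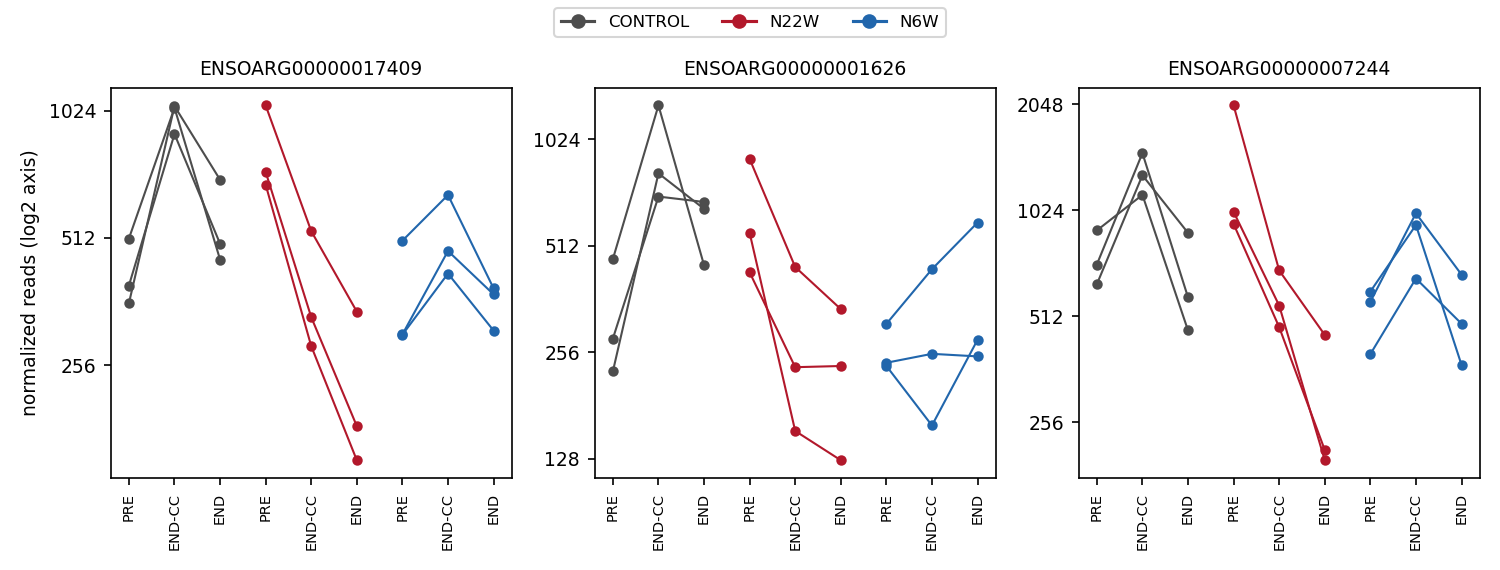
Normalized reads (vertical log2 axis) of the 3 genes whose change from PRE to END-CC differed between N22W and CONTROL, with a line for each animal from PRE over END-CC to END. CONTROL lines go up and N22W lines down from PRE to END-CC, and in CONTROL and N22W this step crosses the sets of libraries.

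In the operated muscle of the same animals the contrast of treated with CONTROL was just as short of calls, with 0 genes in limma (background 0%, 1052 or 6.41% at an unadjusted p under 0.05, smallest adjusted p = 0.127) and 0 in edgeR. The named genes had been chosen for their small p on the unoperated side, which by itself favours smaller differences here. ENSOARG00000011445 had 16.2, 15.19 and 17.81 normalized reads in the operated CONTROL muscle, inside the range of 10.25 to 29.82 of the treated animals, and a log2 difference of 0.10 (95% confidence interval −0.65 to 0.86). ENSOARG00000003586 and ENSOARG00000006132 overlapped as well, with log2 differences of 0.11 and −0.14. For ENSOARG00000015296 the log2 difference was −0.33 (95% confidence interval −0.74 to 0.08) and for ENSOARG00000020219 −0.50 (95% confidence interval −0.99 to 0.0006), the latter near the −0.58 of the unoperated side. ENSOARG00000001985 was again higher in N6W, with 175.1, 125.9 and 125.2 against 24.92, 31.46 and 24.4 in CONTROL (log2 difference 2.35, limma adjusted p = 0.161). N22W animals had 16.65 to 38.77 of it, overlapping CONTROL, with a log2 difference of −0.24 (95% confidence interval −0.97 to 0.49).

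Whether the difference between treated and CONTROL itself differed between the sides was tested with the animal as a block, and limma called 0 genes (background 0%, 850 or 5.18% at an unadjusted p under 0.05, smallest adjusted p = 0.127, 0 called by edgeR). For ENSOARG00000011445 the difference was smaller in the operated muscle by a log2 value of −1.60 (95% confidence interval −2.56 to −0.65, limma adjusted p = 0.873). For ENSOARG00000015296 the value was 0.25 (95% confidence interval −0.11 to 0.61). None of the 6 named genes passed this test. Their choice by END-CC values, which enter this test, by itself favours a smaller difference in the operated muscle.

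Some genes lacked overlap on both sides. At END, 264 genes were higher (1.61%) and 235 lower (1.43%) in every treated library. Of the 279 genes higher in unoperated muscle 28 (10.0%) were among the 264, of which they made up 10.6%. Of the 293 lower genes 21 (7.17%) were among the 235, or 8.94% of those. These shares stand against the 1.61% and 1.43% of all genes. No gene separated in opposite directions. Both sides come from the same animals, so a trait of an animal enters both lists.

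The largest joint difference of all genes tested was that of ENSOARG00000008077, which was singled out after its values had been seen. The CONTROL animals had 85.62, 87.16 and 89.89 normalized reads at END-CC. Of the treated animals 2913 had 70.59 and 2908 had 82.95, and the other 4 had 0, which gives a separation without overlap and a log2 difference of −4.38 with the pseudocount of 1 (limma unadjusted p = 0.0179). In N6W the animals stood in the same order before any injection, with 61.31 in 2908 and 0 in 2907 and 2909. In N22W the 2 animals at 0 had reads at PRE, with 105.7 in 2914 and 91.54 in 2915, while 2913 had 1354 and the CONTROL animals had 1426, 1330 and 1205. Those PRE libraries belong to the set scaled apart, and CONTROL values of this gene were also far higher there than at END-CC. Over the whole file, 9 genes had reads in all 6 treated and in 0 CONTROL libraries, with at most 6 reads in a library, and 4 genes the reverse, with at most 3.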

How the data were processed

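Total RNA of 36 muscle biopsies was sequenced as stranded libraries after depletion of ribosomal RNA with human probes, per the labels' protocols. STAR 2.3.0e, R 3.0.2 and Oar_v3.1, a sheep genome build, are listed in the submitters' processing notes with no role. Their counting, scaling and annotation are steps not given in the sources used here. A deposited file holds a signal per Ensembl gene identifier, whose steps show reads scaled by a factor of the library. Divided by the library's step (0.512 to 1.62), every value of at most 100 reads came within 0.1 of a whole number, also in the END-CC library of animal 2903, whose step of 1.01 lies near 1. Groups were taken from the sample titles, since the source name reads the same for all libraries. Of 25197 identifiers 0 matched the reference table, none of whose 35057 entries carries an Ensembl identifier, so the planned gene lists and cell type markers were not analysed here.

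The design named edgeR's quasi-likelihood test for counts and limma for other units. Since the values are not whole counts, limma 3.58.1 (eBayes with trend, R 4.3.3) was run on log2(value + 1). Genes entered when their median over the 36 libraries reached 0.5, which 16417 did. Differences are on this log2 scale and understate changes of low genes. The 9 END-CC libraries were fitted with a mean per arm, and the joint contrast is the mean of both treated arms minus CONTROL. Two-sided p-values carry a Benjamini-Hochberg adjustment across those genes. Comparisons within animals had the animal as a block: END and END-CC deviations from group means correlated at 0.224 to 0.341 within an animal, and PRE and END-CC at 0.143 to 0.264. The edgeR 4.0.16 and DESeq2 1.42.0 fits used the recovered reads. The limma step was tested on simulated data. Pairs of libraries within an arm differed by a chi-square per gene of 20.8 to 53.5, far above sampling noise, so none was a copy. The 2 genes with the smallest p in each direction of the joint contrast, and the first in each direction of either arm, among 12345 genes with a mean of at least 10, were named. The members, lists and rules were chosen with earlier results of these data known. Animals are separate within an arm, and the p-values of single genes set a difference against the spread between them. With the animal as a block, that spread is the one of differences within an animal, taken between animals.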

Additional observations from a re-analysis of the deposited data

Results flagged for a closer look

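In the operated muscle, ENSOARG00000020219 of animal 2908 stood at 1065 normalized reads, above the other 5 treated END libraries by 0.669 of the range of all 6. This was the only such library among 22 sets of 6 treated libraries examined, where chance alone would mark about 1 in 20. In the unoperated muscle the same animal had 1181, the highest of the 6 treated values.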

How the results depend on the processing

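The count of 0 called genes at END-CC, jointly and for either arm, held in limma with a pseudocount of 0.5 or 5, without a filter, with a mean of at least 10, after TMM scaling and in edgeR. The joint count was also 0 with 2 group means and in edgeR without animal 2913, and that of N22W against N6W after TMM scaling and in edgeR. It did not hold in DESeq2, which called 45 genes jointly, 106 for N22W and 17 for N6W, nor in the fit over all 36 libraries with the replicate block, which called 7, 5 and 2. The cause was not tested. Leaving out 1 animal gave 0 to 1 genes jointly, for N22W, for N6W and for N22W against N6W, and for END, and 0 to 0 for the difference between sides. A count of 1 was reached without CONTROL animal 2903 (jointly, N22W and N6W) or 2902 (N6W, and N22W against N6W), and at END without 2913, and whether these are the same gene was not examined. The difference between sides gave 0 genes also without the animal block, with a pseudocount of 0.5, after TMM scaling and in edgeR.

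The 3 genes of the change from PRE became 0 without the replicate block and 9 in edgeR, and 3 to 11 when 1 animal was left out. Over 143 alternatives for single genes the direction never turned, 131 kept their side of the threshold, 5 passed it only in DESeq2 and 7 lost it. In the joint contrast the log2 difference ranged from 0.82 to 0.97 for ENSOARG00000003586 (adjusted p = 0.0109 to 0.703), from 1.20 to 1.97 for ENSOARG00000011445 (0.0762 to 0.703), from −0.62 to −0.53 for ENSOARG00000015296 (3.99e-05 to 0.634) and from −0.82 to −0.69 for ENSOARG00000006132 (0.000107 to 0.634). The difference in genes detected ran from −39.7 to 136.1 and that in the share of the most abundant gene from −0.435 to 0.865 percentage points when 1 animal was left out.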
